A study of Mus musculus with 24 samples.

Results

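The genes described here are 8 genes of plasminogen activation and blood coagulation, Serpine2, Plat, Plau, Plaur, F3, F13a1, Procr and Tfpi, of 27401 genes named on the array. They were taken by name, through the gene names printed for the non-control spots. They are carried by 17 probes, of which 13 were well above background on all 24 arrays, and the probe with the highest mean signal stood for each gene. That probe was above background on 24 of 24 arrays for all 8 genes, so that no member was lost to the filter on dim genes.

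Plasmin, which dissolves fibrin and other matrix proteins, is released from plasminogen by the tissue activator (Plat) and by urokinase (Plau), the latter on cells that carry its receptor (Plaur), while the serpin Serpine2 (protease nexin 1) inhibits both activators and thrombin. Coagulation starts when tissue factor (F3) meets factor VII, ends with the cross-linking of fibrin by factor XIII (F13a1 is its A subunit), and is held back by tissue factor pathway inhibitor (Tfpi) and by protein C, which is activated more readily when bound to its endothelial receptor (Procr). Fibrin laid down in injured alveoli and its slow removal by plasmin are well known features of fibrosing lung disease.

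RNA of mouse lungs taken 24 days after irradiation was hybridised to 24 arrays in 1 colour, with 2 biological replicates in each of 12 groups. The groups were untreated lung, lung with Ly, with Imatinib, with Su, with both Ly and Imatinib (Ly+Imatinib) or with both Ly and Su (Ly+Su), and these 6 arms with irradiation, written IR, IR+Ly, IR+Imatinib, IR+Su, IR+Ly+Imatinib and IR+Ly+Su. The series title names inhibition of TGFβ and PDGF signalling in pulmonary fibrosis after radiation as its subject. Imatinib inhibits the kinases ABL and KIT and the PDGF receptors, and Ly and Su are known here only by those names. The labels used here give no strain, sex, age, radiation dose, drug dose or schedule, and all 12 groups were labelled as whole shock-frozen lung. In such bulk tissue fewer cells of a type and less RNA per cell cannot be told apart.

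Levels are log2 intensity minus the log2 of the array's own 75th percentile, so that 1 unit is a 2-fold step, 0 is that percentile, and a change in the total amount of RNA would not be seen. Levels of different genes come from different probes and are not compared. There were 6 slides with 4 arrays each, every slide carrying either irradiated or unirradiated lung alone, so slide and irradiation cannot be told apart. Array IR 1 stood apart: its 75th percentile was 2518 against 704 to 1768 on the other 23 arrays, its spike-in spots were the dimmest, and it correlated with IR 2 at r = 0.973 across genes against at least 0.975 for the other replicate pairs. Of the 8 members, 5 had their highest level on IR 1 and Plau its lowest, so results that rest on the IR group are given with and without that array. The surfactant genes Sftpc and Sftpb, the club cell gene Scgb1a1 and the type I gene Ager were well above background on all 24 arrays. The number of arrays, 2 per group, limits the precision of all values.

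The promoters of Procr and F3 are shown because these genes gave most of the differences below and had the most alike profiles of the 8 members (r = 0.81 over 12 group means, a description over points that share arrays). Capitals mark matches to TGANTCA, the letters of an AP-1 site, which read as TGANTCA on the other strand too. The sequences are from RefSeq on GRCm38.p6, plus strand, and end 1 base before the gene's first base, at chr2:155750967-155751124 for Procr and chr3:121723287-121723536 for F3.
Procr: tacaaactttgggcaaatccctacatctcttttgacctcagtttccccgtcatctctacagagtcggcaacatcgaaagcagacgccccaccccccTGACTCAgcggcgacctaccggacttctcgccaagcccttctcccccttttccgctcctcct
F3: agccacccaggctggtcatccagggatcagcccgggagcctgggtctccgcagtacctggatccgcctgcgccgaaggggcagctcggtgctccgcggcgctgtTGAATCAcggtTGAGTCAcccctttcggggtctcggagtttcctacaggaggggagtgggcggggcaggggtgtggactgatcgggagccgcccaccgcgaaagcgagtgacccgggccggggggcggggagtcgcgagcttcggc
The Procr stretch holds the letters 1 time and the F3 stretch 2 times. Windows of 250 bases were found for 6 of the 8 members, and 3 of these, the third being Plaur, hold the letters, as do 6.75% of all 32851 windows in the table. A match is a description of the letters and shows no binding.

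**Figure D1:**
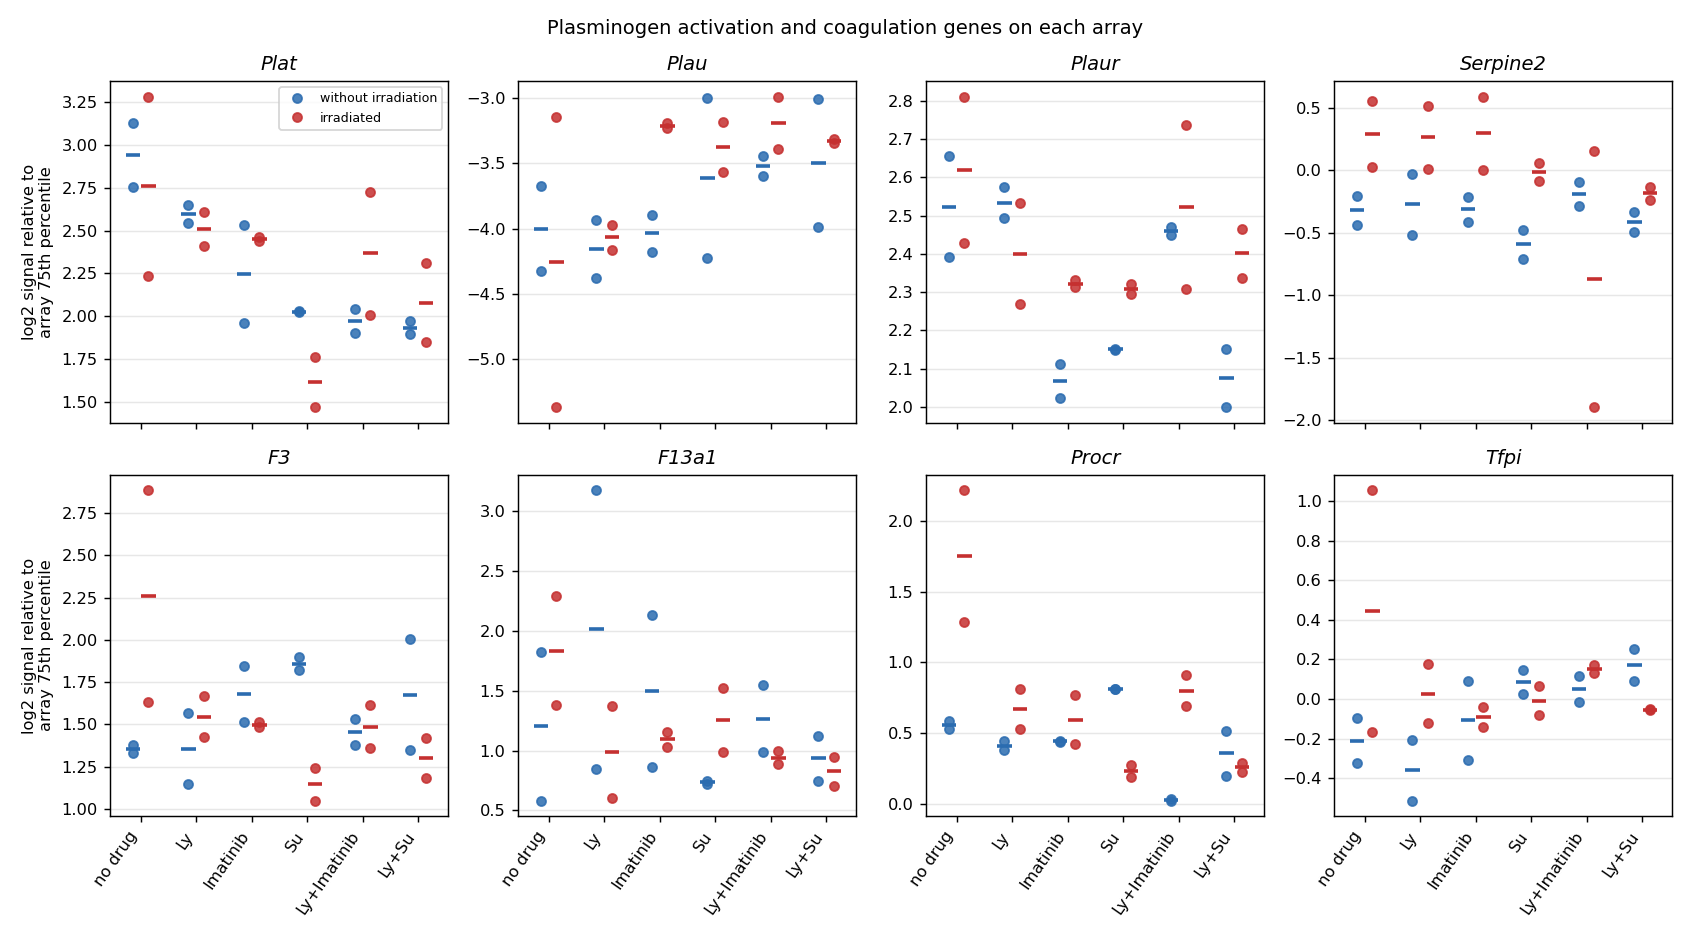
Levels of the 8 genes on each array (log2 intensity minus the array's 75th percentile, vertical axes) in the 12 groups (6 drug arms on the horizontal axes, blue without and red with irradiation), with 1 point per array and a bar at each group mean. Procr on the IR arrays, at 2.22 and 1.29, lies above all 22 other arrays, whose highest level is 0.91, and F13a1, Plau and Serpine2 show single arrays far from their replicate.

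Procr, the endothelial protein C receptor, had 9 of the 16 member differences called in 21 planned comparisons, where called means an adjusted p under 0.05 in limma with Benjamini-Hochberg adjustment over 20421 genes. Its level was 0.58 and 0.53 on the untreated arrays and 2.22 and 1.29 on the IR arrays. The 2 IR arrays were therefore both high, but they also differed from each other by 0.93, more than the pairs of any other group. Untreated and IR arrays did not overlap, and IR was 1.19 higher (SE 0.22, 95% interval 0.72 to 1.67, 2.29-fold, limma adjusted p = 0.00809). Without IR 1 the difference was 0.73 and no longer passed (limma adjusted p = 0.0593). Procr was the only member called in this comparison of 2 against 2 arrays, in which 14.4% of all genes were called, and the count of genes called itself went from 2936 to 166 without IR 1 and to 8614 without IR 2. The median difference of the 8 members was 0.62, against -0.01 over all genes, and 0.23 without IR 1.

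In the order of its group means Procr stood at 1.75 in IR, then at 0.81 in Su, 0.80 in IR+Ly+Imatinib, 0.67 in IR+Ly, 0.60 in IR+Imatinib, 0.56 in untreated, 0.44 in Imatinib, 0.41 in Ly, 0.36 in Ly+Su, 0.26 in IR+Ly+Su, 0.23 in IR+Su and 0.03 in Ly+Imatinib. The pooled SD within groups was 0.23, so apart from IR and the group below it each neighbour in this order lay within 1 SD of the next.

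Each irradiated group that received a drug was below IR in Procr. The arrays read 0.53 and 0.82 in IR+Ly, 0.42 and 0.77 in IR+Imatinib, 0.28 and 0.19 in IR+Su, 0.69 and 0.91 in IR+Ly+Imatinib, and 0.23 and 0.29 in IR+Ly+Su. None of these 10 arrays reached either IR array, and the 4 arrays with Su were the lowest of the 12 irradiated ones. The differences from IR, all with SE 0.22, were -1.08 for IR+Ly (limma adjusted p = 0.0427), -1.16 for IR+Imatinib (0.00933), -1.52 for IR+Su (0.00115), -0.95 for IR+Ly+Imatinib (0.013) and -1.49 for IR+Ly+Su (0.000904). These 5 comparisons share the IR arrays and are not independent of each other.

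Only the groups with Su kept that call when IR 1 was left out: Procr was then 1.05 lower in IR+Su (limma adjusted p = 0.00567) and 1.03 lower in IR+Ly+Su (0.00431) than on IR 2. The other 3 differences without IR 1 were -0.61 for IR+Ly (0.213), -0.69 for IR+Imatinib (0.0614) and -0.48 for IR+Ly+Imatinib (0.0959). The plot of Procr with and without each IR array shows these values side by side. Of other arrays, leaving out IR+Ly 1 or 2 ended the IR+Ly call (limma adjusted p = 0.131 and 0.0938), leaving out IR+Imatinib 1 ended that of IR+Imatinib (0.0521), and leaving out IR+Ly+Imatinib 1 that of IR+Ly+Imatinib (0.0807). IR and IR+Ly lay on the same slide, and the other drug groups lay on other slides than IR.

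**Figure D2:**
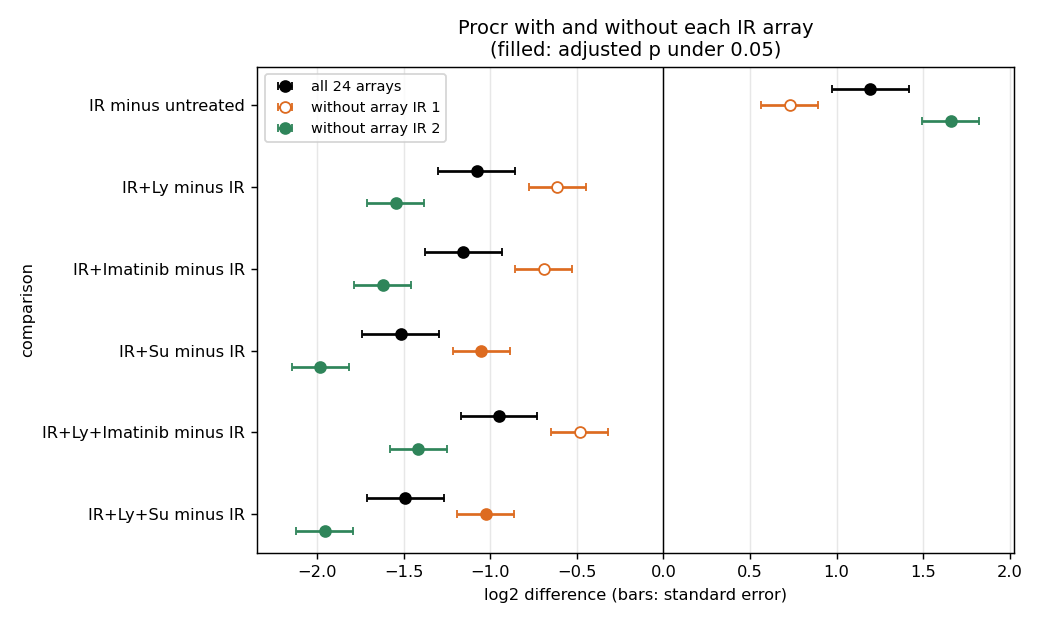
Procr in the comparisons with the IR group, as differences in log2 level (horizontal axis) with standard errors as bars, for all arrays, without IR 1 and without IR 2, filled where called by limma. The values without IR 1 are nearest to 0 in all 6 comparisons, with 0.73 for IR against untreated, -1.05 for IR+Su and -1.03 for IR+Ly+Su against IR.

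Over the 6 drug arms together, Procr was 0.28 higher on the 12 irradiated than on the 12 unirradiated arrays (means 0.72 and 0.43, SE 0.09, 95% interval 0.09 to 0.48, 1.22-fold, limma adjusted p = 0.0271), and the arrays overlapped. It was the only member called, where 32.8% of all genes were called, a background at which 1 of 8 is no excess. The irradiated arrays were above the unirradiated ones in 3 arms, overlapped in 2 and lay below them in the Su arm. The mean thus covers arms of opposite order, and how often all genes show such arms was not counted. Without IR 1 the mean difference was 0.21 and was called (limma adjusted p = 0.013). It missed the threshold without Ly+Su 1 (0.26, limma adjusted p = 0.0532), without IR+Ly 2 (0.26, 0.0562) and without IR+Imatinib 2 (0.25, 0.0585), and with slide as a random block its adjusted p was 0.31.

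Within single drug arms no other irradiation difference of a member was called. In the Su arm Procr read 0.81 on both unirradiated arrays and 0.28 and 0.19 on the irradiated ones, a difference of -0.58 (limma adjusted p = 0.109), and 0 of 8 members were called against 10.3% of all genes. The Ly+Imatinib arm went the other way for Procr, with 0.02 and 0.03 without and 0.69 and 0.91 with irradiation, a difference of 0.77 (limma adjusted p = 0.0679, 0 of 8 members and 3.54% of all genes called). In the Ly arm 0 of 8 members and 0.0392% of all genes were called by limma, in the Imatinib arm 0 of 8 and 2.78%, and in the Ly+Su arm 0 of 8 and 3.38%. At an unadjusted limma p under 0.05 there were 0 members in the Ly, Imatinib and Ly+Su arms, 1 in the Ly+Imatinib arm (Procr) and 2 in the Su arm (Procr and F3).

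For the drugs, arms that share a drug were pooled: the 4 irradiated arrays with Su (IR+Su, IR+Ly+Su) or with Imatinib (IR+Imatinib, IR+Ly+Imatinib) were each compared with the same 4 arrays of IR and IR+Ly. The arms without Su or Imatinib lay on slides 1 and 4 and all arrays with either drug on slides 2, 3, 5 and 6, so in these pooled comparisons drug and slide cannot be told apart. In irradiated lung Su had 3 members called, all lower, Procr, Plat and F3, against 25% of all genes called, and the median difference of the 8 members was -0.37 against 0.02 over all genes (-0.19 without IR 1, when Procr alone was called). Procr fell by 0.96 on the log2 scale with Su (SE 0.16, 1.95-fold lower, limma adjusted p = 0.00135), with no overlap between the groups. The call held without each of the 8 arrays in turn, at differences from -1.20 to -0.73, the smallest being that without IR 1 (limma adjusted p = 0.00125). With Imatinib Procr was 0.51 lower (SE 0.16, limma adjusted p = 0.0456, 1 of 8 members and 13.3% of all genes called), with overlap. That call held without IR 2 alone; it was lost without IR 1 (-0.28, limma adjusted p = 0.115) and without IR+Ly 1 or 2, IR+Imatinib 1 or 2, or IR+Ly+Imatinib 1 or 2, whose adjusted p-values lay between 0.0632 and 0.127.

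**Figure D3:**
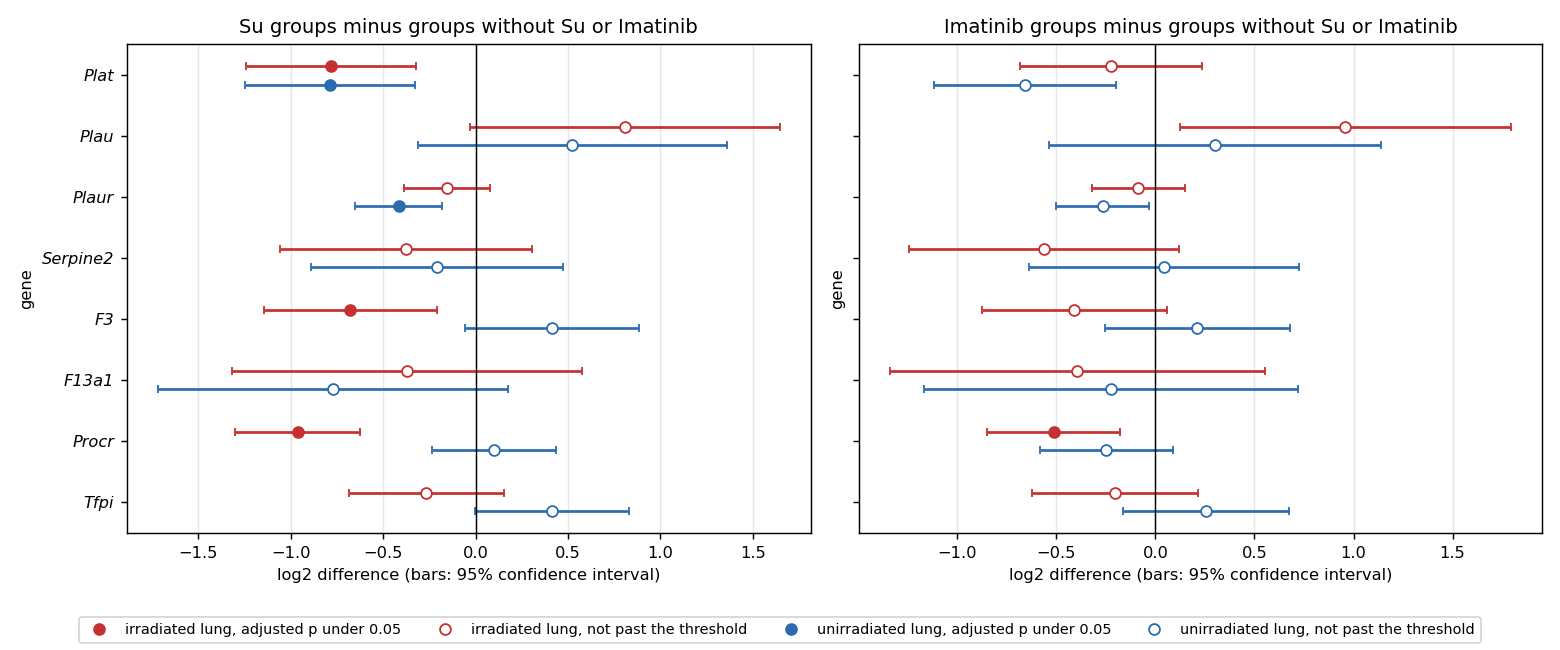
Differences in log2 level (horizontal axis) of the 8 genes for Su and for Imatinib against the arms without either, in irradiated and in unirradiated lung, with 95% intervals from limma as bars (4 against 4 arrays each), red in irradiated and blue in unirradiated lung and filled where called. The interval of Procr with Su in irradiated lung, -1.30 to -0.63, lies wholly below 0, whereas that in unirradiated lung, -0.24 to 0.44, spans it, and Plat lies at -0.79 with Su in both.

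Plat, the tissue plasminogen activator, was the second member lower with Su, and it was lower in both kinds of lung. In irradiated lung it read 3.28 and 2.24 in IR, 2.61 and 2.41 in IR+Ly, 1.76 and 1.47 in IR+Su, and 2.31 and 1.85 in IR+Ly+Su. The IR+Su arrays were the lowest of all 24, and only IR+Ly+Su 1 reached into the range of the arrays without Su. The pooled difference was -0.79 (SE 0.21, 95% interval -1.25 to -0.33, 1.72-fold lower, limma adjusted p = 0.0183). It was -0.52 without IR 1 (limma adjusted p = 0.0701), and it also missed the threshold without IR+Ly 1 (-0.74, 0.0573), IR+Su 2 (-0.71, 0.0674) or IR+Ly+Su 2 (-0.67, 0.0751).

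In unirradiated lung Plat read 2.75 and 3.13 on the untreated arrays, 2.65 and 2.55 with Ly, 2.03 and 2.02 with Su, and 1.97 and 1.90 with Ly+Su. The groups with and without Su did not overlap. The difference was again -0.79 (SE 0.21, 1.73-fold lower, limma adjusted p = 0.0472), and the difference between the 2 differences was 0.00 (95% interval -0.65 to 0.65). No call remained when any of the 8 arrays was left out, with differences from -0.88 to -0.70 and adjusted p-values from 0.0518 to 0.169. Imatinib gave -0.66 in unirradiated lung (SE 0.21, limma adjusted p = 0.173), without overlap, and 0 of 8 members were called with it there against 0.779% of all genes, with 2 members, Plat and Plaur, at an unadjusted limma p under 0.05.

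No irradiation difference of Plat was called, with a mean over the arms of 0.01 (95% interval -0.26 to 0.28; -0.08 without IR 1) and -0.18 for IR against untreated (-0.83 to 0.47), which was -0.70 without IR 1 (limma adjusted p = 0.257). Against IR alone, IR+Su was 1.14 lower in Plat (SE 0.30, 2.21-fold, limma adjusted p = 0.0163), 1 of the 3 members called there against 25.8% of all genes. Without IR 1 this was -0.62 (limma adjusted p = 0.21), and the call was also lost without IR+Su 1 (-1.29, 0.0515) or IR+Su 2 (-0.99, 0.11). On the same slide, the difference of IR+Su from IR+Imatinib in Plat was -0.83 and was not called (limma adjusted p = 0.436).

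F3, tissue factor, was the third member lower with Su in irradiated lung. It read 2.88 and 1.63 in IR, 1.67 and 1.42 in IR+Ly, 1.05 and 1.24 in IR+Su, and 1.42 and 1.18 in IR+Ly+Su. IR 1 was more than 1 unit above its replicate, and the lowest array without Su was equal to the highest with Su at 2 decimals, the groups just missing an overlap. The pooled difference was -0.68 (SE 0.22, 1.6-fold lower, limma adjusted p = 0.0369) and the call held without IR 2 alone. It was -0.36 without IR 1 (limma adjusted p = 0.135), and without any of IR+Ly 1 and 2, IR+Su 1 and 2 and IR+Ly+Su 1 and 2 it lay between -0.74 and -0.62 at adjusted p-values from 0.0556 to 0.108.

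In unirradiated lung F3 lay on the other side, at 1.33 and 1.38 in untreated, 1.57 and 1.15 in Ly, 1.90 and 1.82 in Su, and 1.35 and 2.01 in Ly+Su. The Su arrays were above all 4 arrays without Su, and 1 of the Ly+Su arrays was not. The difference was 0.41 (95% interval -0.06 to 0.88, limma adjusted p = 0.276). F3 was 0.90 higher in IR than in untreated lung (SE 0.31, limma adjusted p = 0.0633), without overlap of the arrays (0.28 without IR 1, 0.655), and 0.71 lower in IR+Su than in Su (0.152), again without overlap. Against IR it was 1.11 lower in IR+Su (limma adjusted p = 0.0197, 2.16-fold) and 0.96 lower in IR+Ly+Su (0.0351), and without IR 1 these were -0.48 (0.253) and -0.33 (0.44). The same calls were lost without IR+Su 1 or 2 (adjusted p = 0.11 and 0.072) and without IR+Ly+Su 1 or 2 (0.0995 and 0.156).

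The counts of members against IR were 1 of 8 for IR+Ly (Procr, 0.921% of all genes), 1 for IR+Imatinib (Procr, 13.3%), 3 for IR+Su (Procr, Plat and F3, 25.8%), 1 for IR+Ly+Imatinib (Procr, 19.4%) and 2 for IR+Ly+Su (Procr and F3, 28.1%). All 8 of these calls were in the lower direction. In no comparison did a member other than Procr pass as higher.

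Plaur, the urokinase receptor, was called once. In unirradiated lung it read 2.39 and 2.66 in untreated, 2.57 and 2.49 in Ly, 2.15 on both arrays of Su, and 2.00 and 2.15 in Ly+Su. The arrays with Su were all below those without, and the difference was -0.42 (SE 0.11, 1.33-fold lower, limma adjusted p = 0.0423). With Plat this made 2 of 8 members called for Su in unirradiated lung, both lower, against 5.55% of all genes. The call held without untreated 1 alone and was lost without any of the 7 other arrays of these groups, at differences between -0.45 and -0.35 and adjusted p-values from 0.0792 to 0.162. In irradiated lung the difference was -0.16 (95% interval -0.39 to 0.08). Plaur was above its unirradiated counterpart without overlap in 3 arms, a count for which the share over all genes was not taken. Its mean irradiation difference was 0.13 (SE 0.06, limma adjusted p = 0.136), and 0.16 without IR 2 or without IR+Ly+Imatinib 2.

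Ly, pooled over the 3 pairs of arms with and without it, had 0 of 8 members called in irradiated lung (3.53% of all genes) and 0 of 8 in unirradiated lung (4.85%) by limma, with 1 member, Procr, at an unadjusted p under 0.05 in each. Procr was 0.28 lower with Ly in irradiated lung (95% interval -0.56 to -0.01, limma adjusted p = 0.359) and 0.34 lower in unirradiated lung (-0.61 to -0.06, 0.199). Without IR 1 the value in irradiated lung was -0.13 (limma adjusted p = 0.632), and without IR 2 it was -0.44 and passed the threshold (limma adjusted p = 0.00556). Ly and untreated lung shared a slide and differed by -0.15 in Procr (limma adjusted p = 0.987).

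Whether a drug difference was unequal in irradiated and unirradiated lung was tested by differences of differences, added after the values had been seen. Arms with Su or Imatinib lay on other slides than those without, so for these drugs slide and drug cannot be told apart here either. For Su this gave -1.06 for Procr (SE 0.22, limma adjusted p = 0.0152) and -1.09 for F3 (SE 0.31, 0.0405), 2 of 8 members against 10.8% of all genes. Among 7 other settings of processing the Procr call was lost in 1 (limma adjusted p up to 0.083) and the F3 call in 3 (up to 0.0935). With normexp background correction 13 genes in all were called in this test, against 2202 in the main setting. The Procr value was called without each of the 16 arrays in turn, between -1.30 and -0.83, while that of F3 was called without 5 of the 16, IR 1 among them, and otherwise reached adjusted p-values of up to 0.0989. For Imatinib it was -0.26 for Procr (95% interval -0.74 to 0.21) with 0 of 8 members called against 1.05%, and for Ly 0.05 (-0.33 to 0.44) with 0 of 8 against 0.0392%. No member was at an unadjusted limma p under 0.05 for Imatinib or Ly.

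The same tests by single arms set the irradiation difference in an arm against that without drug. Only the Ly arm shared its slides with IR and untreated lung, so in the other arms slide and drug again cannot be told apart. In the Su arm it was 1.77 lower for Procr (SE 0.31, limma adjusted p = 0.0134) and 1.62 lower for F3 (SE 0.44, 0.0381), 2 of 8 members against 10.2% of all genes. In the Ly+Su arm it was 1.29 lower for Procr (0.0481), 1 of 8 against 2.29%. Among 7 other settings of processing this Ly+Su call was lost in 3, the F3 call of the Su arm in 2 and the Procr call of the Su arm in 0. Limma called 0 of 8 members in the Ly arm (0.0049% of all genes, 1 member at an unadjusted p under 0.05), the Imatinib arm (0.676%, 2 members) and the Ly+Imatinib arm (0.157%, 0 members). The values without IR 1 were -1.31 for Procr in the Su arm, which was called, -0.99 for F3 in the Su arm (limma adjusted p = 0.117) and -0.83 for Procr in the Ly+Su arm (0.102). The Procr value of the Su arm was lost without Su 1 (limma adjusted p = 0.0533), Su 2 (0.0558) or IR+Su 2 (0.0523), and the other 2 values were called only when all arrays were used or IR 2 was left out, with adjusted p-values of up to 0.117 for F3 and 0.164 for Procr. The F test over all arms, which was planned, called 0 of 8 members (Procr adjusted p = 0.0649, F3 0.248) against 1.08% of genes, with these 2 members at an unadjusted limma p under 0.05; the adjusted p of Procr was 0.0212 without IR 1 and 0.000526 without IR 2.

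Su and Imatinib were compared directly on arrays of the same slides, so that slides cancel in this comparison. In irradiated lung Procr was 0.45 lower with Su than with Imatinib (95% interval -0.79 to -0.11, limma adjusted p = 0.406) and Plat 0.56 lower (-1.02 to -0.10, 0.445), and F3 differed by -0.27 (-0.74 to 0.20). The 4 arrays with Su lay below the 4 with Imatinib in Procr without overlap, yet 0 of 8 members passed the threshold over all genes, where 0.0343% of genes did and 2 members, these 2, were at an unadjusted limma p under 0.05. In unirradiated lung Procr lay 0.35 higher with Su (0.01 to 0.69, 0.47), with 0 of 8 members called against 0.695% of genes and Procr alone at an unadjusted limma p under 0.05. In irradiated lung the intervals of the 6 other members spanned 0, and so did those of the 7 members other than Procr in unirradiated lung. Doses are not given in the labels, so the 2 drugs are not matched by dose.

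Plau, urokinase, showed no called difference, and its spread was wide. It read -5.37 and -3.15 in IR, -4.33 and -3.68 in untreated, -4.17 and -3.97 in IR+Ly, -3.23 and -3.19 in IR+Imatinib, -3.39 and -2.99 in IR+Ly+Imatinib, -3.19 and -3.57 in IR+Su, and -3.35 and -3.31 in IR+Ly+Su. IR 1 was the lowest of all 24 arrays and IR 2 among the high ones, so the IR mean of this gene describes neither array. The probe was dim. Before scaling, its signal was 61 on IR 1, 145 on IR 2, and 59 and 55 on the untreated arrays. IR 1 thus lay below IR 2, and near the untreated arrays, already before scaling. The 75th percentile by which IR 1 was scaled, 2518, was the highest of all arrays. The part of this scaling in the low level was not tested. In the pooled comparisons Plau was 0.96 higher with Imatinib (95% interval 0.12 to 1.80, limma adjusted p = 0.111) and 0.81 higher with Su (-0.03 to 1.64, 0.142) in irradiated lung. Without IR 1 the 2 values were 0.40 (limma adjusted p = 0.412) and 0.25 (0.598), and IR was 0.85 higher than untreated (0.401). Without IR 2 they became 1.51 (limma adjusted p = 0.00234) and 1.36 (0.00279), and IR itself was 1.36 lower than untreated (0.0297), so the sign of that difference turns on which IR array is used.

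Serpine2, protease nexin 1, was above its unirradiated counterpart without overlap in 5 of the 6 arms. The share of all genes with such a count was not taken. The arrays read -0.43 and -0.21 in untreated against 0.56 and 0.03 in IR, -0.51 and -0.03 in Ly against 0.01 and 0.51 in IR+Ly, and -0.41 and -0.21 in Imatinib against -0.00 and 0.59 in IR+Imatinib. They read -0.48 and -0.71 in Su against -0.09 and 0.06 in IR+Su, and -0.33 and -0.50 in Ly+Su against -0.13 and -0.24 in IR+Ly+Su. The exception was the Ly+Imatinib arm, with -0.28 and -0.09 against -1.89 and 0.16, where the low array, IR+Ly+Imatinib 1, was also the array with the most spots marked as outliers by the scanner software, 330 against at most 80 elsewhere. Whether those spots bear on the low value was not tested.

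The mean irradiation difference of Serpine2 was 0.31 (SE 0.18, 95% interval -0.08 to 0.71, limma adjusted p = 0.206). Without IR+Ly+Imatinib 1 it was 0.48 and passed the threshold (limma adjusted p = 0.00372), so that 1 array decides this result. Leaving out its replicate, IR+Ly+Imatinib 2, instead left the low array alone and gave calls in the lower direction, such as -2.19 against IR (limma adjusted p = 0.000352), where all arrays together gave -1.16 (0.0793).

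F13a1, the A subunit of factor XIII, had the widest spread between replicates, with a pooled SD of 0.67 and a gap of 2.33 between the Ly arrays, at 3.17 and 0.85. The untreated arrays read 0.58 and 1.83, those of IR 2.29 and 1.38, and those of IR+Su 0.98 and 1.52. Gaps of this size between replicates cover the differences between groups, and the mean irradiation difference was -0.12 (95% interval -0.66 to 0.43). F13a1 is also made by macrophages, whose marker levels are given below.

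Tfpi, the inhibitor of the tissue factor pathway, read -0.10 and -0.33 in untreated, 1.05 and -0.17 in IR, 0.18 and -0.12 in IR+Ly, -0.04 and -0.14 in IR+Imatinib, and 0.06 and -0.08 in IR+Su. IR 1 was the highest of the 24 arrays while IR 2 lay within the untreated arrays. IR was 0.65 higher than untreated (95% interval 0.06 to 1.24, limma adjusted p = 0.115). Without IR 1 this was 0.04 (limma adjusted p = 0.941), and without IR 2 it was 1.27 and called (0.000223). Su in unirradiated lung gave 0.41 (95% interval -0.00 to 0.83, limma adjusted p = 0.222), with the arrays with Su all above those without.

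Other probes of 5 of the genes gave a partial check of these values, tested among all probes. The second F3 probe differed by -0.52 with Su in irradiated lung (limma adjusted p = 0.09), in the direction of the first. Its Su difference in irradiated minus that in unirradiated lung was -0.86 and was not called (limma adjusted p = 0.0769). The second Plat probe gave -0.55 in irradiated lung (0.0892) and fell by 1.01 with Su in unirradiated lung (0.0236), and the second Plaur probe fell by 0.64 there (0.0228). The last Plat probe, above background on 7 arrays, gave 0.60 with Su in irradiated lung (0.193), the opposite sign. A further Plau probe was above background on 0 arrays, and of the 5 Tfpi probes 2 were so on 4 and 1 arrays. Procr, Serpine2 and F13a1 had 1 probe each.

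The rest of the pathway was described by a list of 51 other genes, 50 of them on the array and 46 bright enough to be tested. Not tested were Plg, Serpina5, F13b and Adamts13, and F2r was not analysed here. In the mean irradiation difference 13 of the 46 were higher and 5 lower (median 0.12, against 0.01 over all genes), and 17 of these 18 were also called without IR 1. By role the counts were 4 higher and 1 lower of 14 genes of plasminogen activation, 6 and 0 of 15 coagulation factors, 3 and 3 of 11 anticoagulants, 0 and 0 of 3 thrombin receptors and 0 and 1 of 3 genes of the vitamin K cycle. These 18 of 46 stand beside the 32.8% of all genes called. Slide and irradiation cannot be told apart for these genes either. With slide as a random block, added after the values had been seen, 8 of the 46 were higher and 4 lower beside 3329 genes in all, and with slide means of 3 against 3 limma called 0 of the 46 and 1 gene in all, with 11 of the 46 at an unadjusted p under 0.05.

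Thbd, thrombomodulin, which with Procr promotes the activation of protein C, was 0.28 lower in irradiated lung (limma adjusted p = 0.00414) where Procr was higher. It read 5.74 and 5.73 in untreated and 4.99 and 5.47 in IR, so both IR arrays were below the untreated ones.

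Kng1, Fgg and Fga had the highest irradiation differences in the list. Kng1, kininogen 1, was well above background on 11 of 12 irradiated and 0 of 12 unirradiated arrays, with a bound of 6.80-fold. Fga, the fibrinogen alpha chain, was above background on 5 of 12 and 0 of 12 arrays, with a bound of 2.32-fold. These bounds set the bright mean over all arrays of the group against the lowest signals well above background. That mean includes irradiated arrays not above background, most of them for Fga. Both genes entered the tests through irradiated groups alone. Their calls for irradiation, here and in IR against untreated lung below, are therefore no support for a rise. Fgg, the fibrinogen gamma chain, was measured on all 24 arrays and rose by 1.70 (limma adjusted p = 0.000467), with 1.87 and 2.80 in IR against -1.16 and -1.42 in untreated. The fibrinogen beta chain, Fgb, was not called (0.19, 0.624) and passed background on 4 arrays, all from irradiated lung, and neither were F11 (-0.13), F12 (-0.27) and Klkb1 (0.00) of the contact system. Tfpi2, a relative of Tfpi, passed background on 10 of the arrays with irradiation but on 2 of those without, and its fitted difference of 1.30 (0.00681) rests partly on arrays not above background, as do those of Hrg, F9 and F8. Hrg rose by 0.76, F7 by 0.61, F9 by 0.60, Mrc2 by 0.58 and F8 by 0.42, and Vtn, vitronectin, fell by 0.65 (0.00691).

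In IR against untreated lung 7 of the 46 were higher and 2 lower beside 14.4% of all genes, and without IR 1 3 were higher, Kng1, Fgg and Fga, and 0 lower beside 166 genes in all. With Su in irradiated lung 1 was higher, F9 by 1.09, and 16 were lower (median -0.24 against 0.02 over all genes), among them Fgg by 2.39, Kng1 by 2.04 and F7 by 1.09, at limma adjusted p-values of 0.00378, 0.00412 and 0.00979. The lower ones were 3 of 14 genes of plasminogen activation, 7 of 15 coagulation factors, 3 of 11 anticoagulants, 1 of 3 thrombin receptors and 2 of 3 of the vitamin K cycle. Fga is among these coagulation factors. It was above background on 3 of the 4 irradiated arrays without Su or Imatinib and on no irradiated array with Su. As it entered the tests through irradiated groups alone, its call with Su is no support for a fall. These counts with all arrays stand beside 25% of all genes called. Without IR 1 the median of the 46 was -0.14, and the share of all genes called in that fit is not given here. In unirradiated lung 2 of the 46 were called with Su beside 5.55% of all genes, both lower: F10, factor X, fell by 0.95 (limma adjusted p = 0.0214) and Anxa2, a binding site for plasminogen on cells, fell by 0.35 (0.00956).

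**Figure D4:**
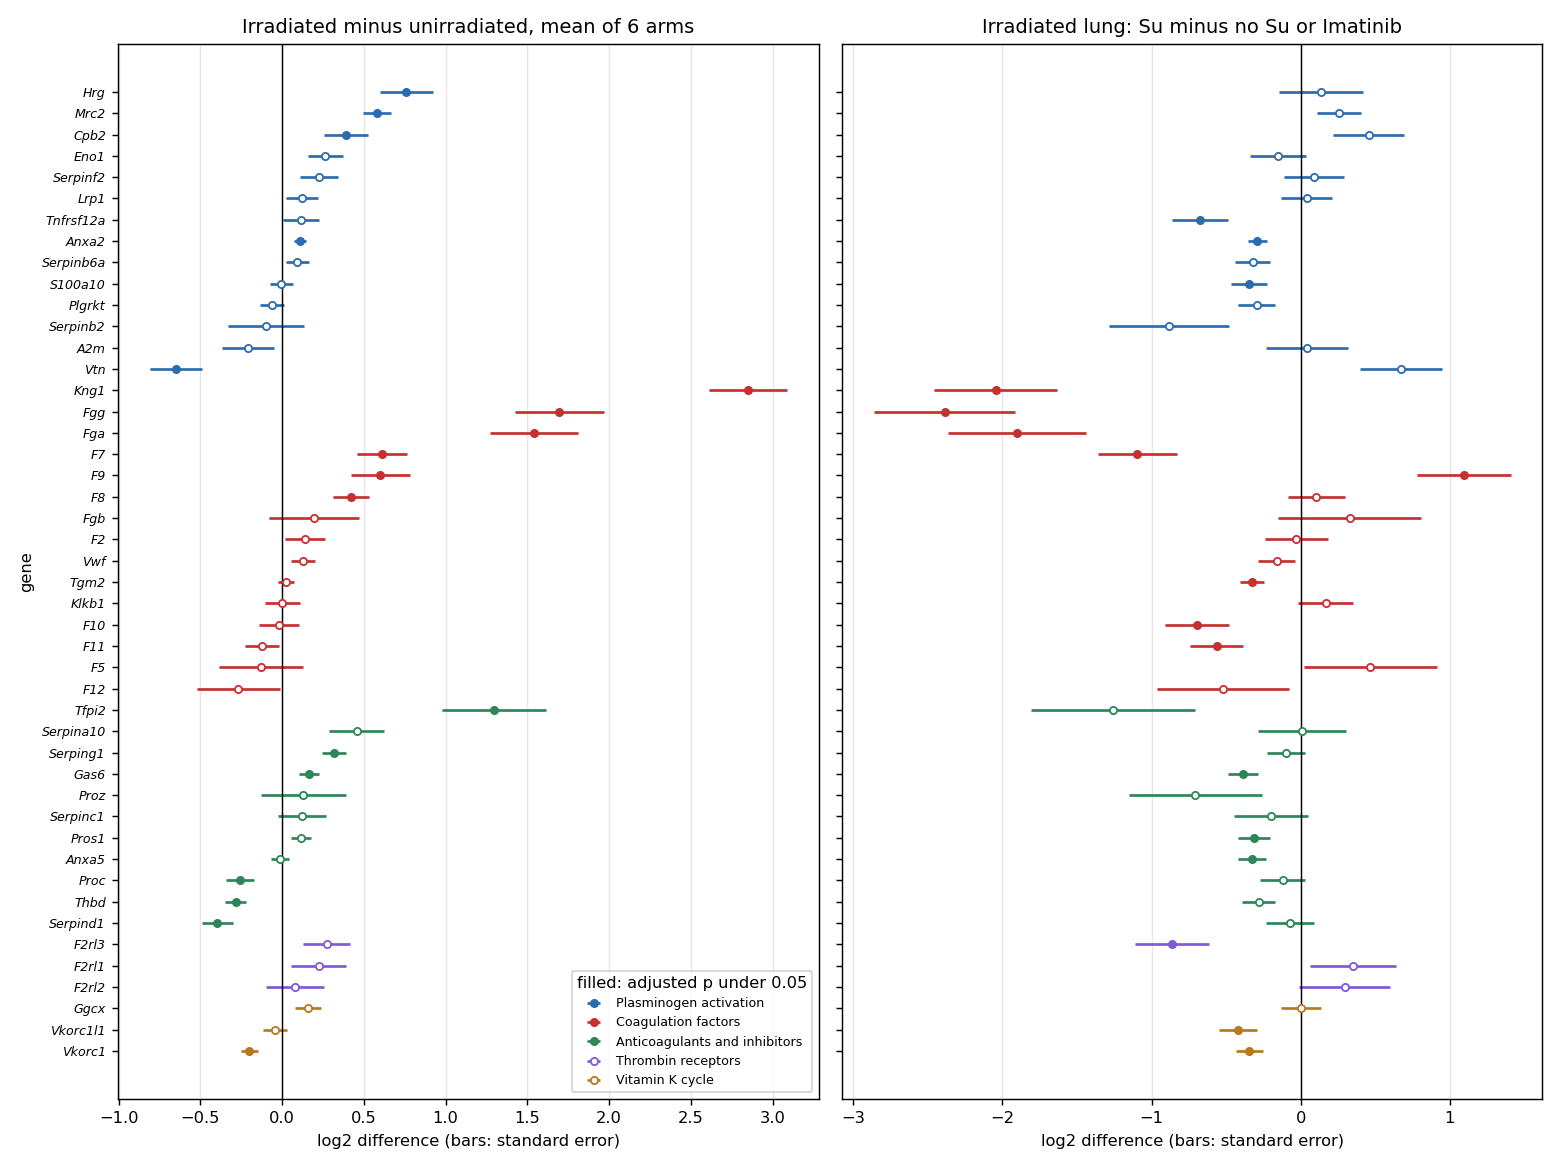
The 46 other pathway genes by role, with the mean irradiation difference over the 6 arms and the difference with Su in irradiated lung in log2 units (horizontal axes), with standard errors as bars, colours for the roles and filled points for genes called by limma. Kng1, Fgg and Fga stand at the right for irradiation, at 2.85, 1.70 and 1.54, and at the left for Su, at -2.04, -2.39 and -1.90; the values of Kng1, Fga and Tfpi2 for irradiation and of Fga for Su are fitted in part over arrays not above background.

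Markers of cell types also differed between groups, some in the direction of these values and some against it. Their part in the results was not tested. Their counts stand beside the share of all genes called. That share was 32.8% in the mean irradiation difference, 14.4% in IR against untreated and 25% with Su in irradiated lung. The mean level of 9 macrophage and monocyte genes was 2.47 on IR 1, 1.96 on IR 2, 1.50 to 2.11 on the other irradiated arrays, of which those with Su held 1.50 to 1.82, and 1.19 to 2.02 on the unirradiated ones. Of the 9, 5 were called higher in IR than in untreated lung (0 without IR 1) and 5 lower with Su in irradiated lung (3 without IR 1). The mean of 10 endothelial genes, the cells that Procr, Plat and Tfpi are known from, was 3.04 on IR 1 and 3.64 on IR 2 against 3.67 to 3.92 on the other irradiated and 3.76 to 3.99 on the unirradiated arrays, with 0 higher and 4 lower of 10 in IR against untreated (0 and 0 without IR 1) and 1 higher and 5 lower in the mean irradiation difference. Of 5 alveolar type I genes 4 were lower in the mean irradiation difference and 2 with Su in irradiated lung, and their mean level was 5.12 on IR 1, 5.11 on IR 2, 4.63 to 5.13 on the other irradiated arrays, of which those with Su held 4.63 to 5.02, and 5.10 to 5.40 on the unirradiated ones. With Su in irradiated lung, where Procr and Plat were lower, 1 of the 10 endothelial genes was higher and 0 were lower. Their median difference there was 0.20, and 0.14 without IR 1. Of 8 platelet genes 0 were called by limma in the mean irradiation difference, in IR against untreated or with Su. In the mean irradiation difference 2 of 7 fibroblast genes and 1 of 6 alveolar type II genes were higher. There 1 of 5 neutrophil genes was lower and 0 of 5 smooth muscle genes were called. The hepatocyte genes Ttr, Serpina1b and Apoa1 were above background on 0, 2 and 6 arrays, and Alb on 22. Of the 3 hepatocyte genes tested, 1 was higher in the mean irradiation difference, with a median of 0.29 (0.24 without IR 1). With Su in irradiated lung 1 was lower, but the median was -0.05 (-0.005 without IR 1). In IR against untreated 0 of the 3 were called.

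The genes whose 12 group means followed each member most closely, among all genes tested, were Serinc2 for Procr (r = 0.97), Ifi27 for F3 (0.96), Serpinh1 for Plat (0.96), Kdr for Plau (0.96), Vmn2r30 for Plaur (0.91), F10 for F13a1 (0.93), Atg10 for Tfpi (0.97) and Cdh23 for Serpine2 (0.87). These are descriptions over points that share arrays and the same array scaling. Among the members F3 and Procr were the most alike, followed by F3 and Tfpi (r = 0.71) and Procr and Tfpi (0.62), 3 genes that were all highest on IR 1.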

How the data were processed

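RNA from 24 mouse lungs was labelled with Cy3 by linear amplification, per the labels' protocols. Per the file headers, Feature Extraction 9.1.3.1 produced the deposited intensity values, background-subtracted and not scaled between arrays. Spots of a probe were averaged, outlier spots and controls left out, and the log2 intensity scaled to each array's 75th percentile. Genes were named through the RefSeq table. Of 27401 genes, the 20421 well above background on both arrays of at least 1 group entered the fit (limma 3.58.1, R 4.3.3), with 1 mean per group and 12 residual degrees of freedom plus 2.08 from the prior; a call is a Benjamini-Hochberg adjusted p under 0.05. The members and lists were chosen with earlier results of these data known. All 8 members were reported in every comparison, and list genes named by the size of the difference among those called. Replicates with the same number did not deviate together (median r 0.04 over 66 pairs of groups), so numbers were not taken as pairs. Whether the replicates were separate animals beyond the word biological is not stated, so p-values measure the spread between these samples. On simulated data the fit was checked for recovery of known changes. The source name of IR+Su 2 gives the number 1, and its title, 2, was used. 1 item of the pathway list is not reported here.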

Additional observations from a re-analysis of the deposited data

Results flagged for a closer look

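For 2 members the irradiation difference was called as unequal between single arms by a test of the difference itself, chosen after the values had been seen. The planned F test over all arms called 0 of 8 members (limma adjusted p = 0.0649 for Procr and 0.248 for F3). In the arms with Su, slide and drug cannot be told apart. For Procr it was lower by limma in the Su arm (-1.77, adjusted p = 0.0134) and in the Ly+Su arm (-1.29, 0.0481) than without drug, and the Su difference in irradiated minus that in unirradiated lung was -1.06 (0.0152). For F3 the same values were -1.62 in the Su arm (0.0381) and -1.09 for Su in irradiated against unirradiated lung (0.0405). Of all genes 10.2% were called in the Su arm, 2.29% in the Ly+Su arm and 10.8% for Su in irradiated against unirradiated lung. Without IR 1 the values of Procr were -1.31, -0.83 and -0.83 in the same order, and those of F3 -0.99 and -0.78.

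For 3 members the irradiated arrays lay above the unirradiated ones in some arms and below them in another, each without overlap. Each arm compares 2 against 2 arrays, and how often other genes show this was not counted. It is therefore not read as a result about these members. The irradiated arrays of Procr were above the unirradiated ones in 3 arms and below them in 1 (F test adjusted p = 0.0649 in limma), those of F3 above in 1 arm and below in 1 (0.248), and those of Tfpi above in 2 and below in 1 (0.53).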

How the results depend on the processing

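No called value changed its sign under any alternative run for it. The numbers of the 8 members called under other settings were as follows. Counts over all genes stand beside some of them, and a member count without one has no background here. Quantile normalization gave 2 for the mean irradiation difference, 1 in the Ly+Imatinib arm, 0 for Imatinib in irradiated lung and 1 for IR+Ly+Su against IR. Background correction by normexp gave 0 for the mean irradiation difference and 1 in the Ly+Imatinib arm, where 9228 genes in all were called. It gave 1 for Su in irradiated lung (526 genes in all), 0 for Su in unirradiated lung (36) and 0 for Imatinib in irradiated lung (45). Against IR it gave 0 for IR+Ly, IR+Imatinib and IR+Ly+Imatinib and 1 for IR+Ly+Su. Without a filter on dim genes there were 0 for Imatinib in irradiated lung, Su in unirradiated lung and IR+Ly against IR, with every probe tested 1 for Su in unirradiated lung, and with genes above background on all 24 arrays 2 for IR against untreated. Fits of 2 groups alone gave 0 for IR against untreated and for all 5 drug groups against IR, where 0 genes in all were called. They gave 3 in the Su arm, where 6169 genes in all were called. Slide as a random block, in an additive model, and slide means of 3 against 3, both added later, gave 0 for the mean irradiation difference. The random block called 3329 genes in all and the slide means 1. The random block could not be fitted with a mean for each group. The replicate block ended the call of Procr for Imatinib in irradiated lung (adjusted p = 0.0503 in limma, 0 members called) and changed no other call of a member.

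Leaving out 1 array at a time, the members called ranged from 0 to 3 for the mean irradiation difference, 0 to 4 for IR against untreated, 0 to 1 in the Ly+Imatinib arm, 0 to 2 for Ly, 0 to 4 for Imatinib and 1 to 5 for Su in irradiated lung, 0 to 1 for Su in unirradiated lung, 0 to 4 for IR+Ly, 0 to 6 for IR+Imatinib, 1 to 6 for IR+Su, 0 to 5 for IR+Ly+Imatinib and 1 to 5 for IR+Ly+Su against IR, and 0 to 3 in the F test. A group left with 1 array is assumed to vary like the others. In the counts over all genes that end this paragraph, not every lowest count came without IR 1. That array was the one left out for IR against untreated and for IR+Imatinib and IR+Ly+Imatinib against IR. The other lowest counts came without an array of another group. Of the 14 member calls that use the IR group, 4 held without IR 1, all of Procr. Over all genes the counts called by limma moved too: from 166 without IR 1 to 8614 without IR 2 for IR against untreated, 15 to 7722 for IR+Ly, 282 to 9018 for IR+Imatinib, 1519 to 9479 for IR+Su, 1316 to 9005 for IR+Ly+Imatinib and 1528 to 9954 for IR+Ly+Su against IR, 472 to 3277 for Ly, 1030 to 7730 for Imatinib and 2820 to 8957 for Su in irradiated lung, and 92 to 5414 in the F test, each highest without IR 2.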
